A study of Mus musculus with 30 samples.

Results

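The 85 genes described here are those named for proteins of the cytosolic ribosome. They are the rows of the count table whose symbol is Rpl or Rps followed by a number and, in some, by letters, together with Rplp0, Rplp1, Rplp2 and Rpsa; rows named as pseudogenes with -ps were left out. They are 85 of 43346 rows, 52 of the large subunit and 33 of the small subunit, and the rule used names and no measured value. Total RNA was sequenced from 50000 sorted mouse cells that lacked GFP, in 30 libraries of bone, lung or brain. Tumour-free mice gave 3 bone, 2 lung and 2 brain control libraries. The 23 exposed libraries came from tissue that held tumours of human circulating tumour cell (CTC) lines, which are cultures grown from tumour cells in the blood of patients with breast cancer. Exposed bone comprised 2 Brx07, 4 Brx50 and 7 Brx68 libraries. Exposed lung comprised 2 Brx07, 1 Brx42, 3 Brx50 and 1 Brx68 library, and exposed brain comprised 3 Brx50 libraries.

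Tumours were started by injecting 100000 cells carrying GFP and luciferase into the left ventricle of the heart of female NSG mice aged 6 to 8 weeks that carried estrogen pellets. NSG mice lack mature T cells, B cells and NK cells. The labels do not say whether the control mice carried the pellets, nor whether each library of a group came from its own mouse, so p-values measure the spread between libraries. Some Brx50 titles of different tissues end in the same code, which links 5 pairs of libraries, and the titles of the 2 Brx07 bone libraries, from leg and skull, share a code too. The Brx68 lung title shares its code with a Brx68 bone title. Codes also recur across lines: a code of Brx50 bone and lung titles ends a Brx68 bone title as well. The labels do not say what the codes mark. Libraries held 4289012 to 15646947 counts. No pair of libraries within a group agreed within sampling noise: over 107 pairs, the chi-square of their counts per degree of freedom ran from 8.67 to 409. The sort keeps every cell without GFP, and each tissue carried its own markers. CPM are counts scaled to a library total of 1000000. The summed CPM of 15 neutrophil markers were 34310 to 44970 in bone control, those of 10 endothelial markers 7679 to 9127 in lung control, and those of 7 oligodendrocyte markers 12030 to 21460 in brain control. In such mixtures, fewer cells of a type and less RNA per cell cannot be told apart.

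A cytosolic ribosome holds one copy of most of these proteins, arranged around ribosomal RNA in a small subunit that reads the mRNA and a large subunit that joins amino acids. Their mRNAs are among the most abundant of growing cells, and many begin with a run of pyrimidines through which mTOR signalling controls their translation. The family also holds paralogues that replace a standard protein in some tissues, such as Rpl3l in striated muscle, Rpl39l in the testis and Rps27l, a target of p53.

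Nearly all members were measured, over a wide range of levels. Rpl10l and Rps4l had no count in any library, which allows up to 3 counts in each by counting error, 76 members averaged at least 100 counts per library, and 9 averaged fewer. Rpl6l, Rps4l and Rpl37rt are annotated as pseudogenes although their symbols fit the rule. Per kilobase of the principal transcript, the highest mean levels in the 7 control libraries were those of Rplp1 with 549 ± 105 CPM per kilobase (SD, n = 7), Rps15 with 507 ± 72.2, Rps14 with 487 ± 96.5, Rplp2 with 449 ± 155 and Rps21 with 422 ± 137. Rplp1 and Rplp2 form, with Rplp0, the stalk of the large subunit that binds elongation factors, and the other 3 belong to the small subunit. These 5 neighbours in the order differ by less than their spread, and part of that spread is the tissue.

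The least abundant members that entered the control comparisons were Rpl3l with 1.28 ± 0.482 CPM per kilobase, Rpl24 with 1.68 ± 0.644, Rpl23a with 4.30 ± 1.202, Rpl37rt with 12.2 ± 1.82 and Rpl29 with 17.9 ± 7.10 (SD, n = 7 each). Rpl24 and Rpl23a are standard large subunit proteins, of which a ribosome needs as many as of Rplp0. Their transcripts share 81.7% and 85.7% of their 50-base stretches with other annotated genes, and a read that fits more than 1 gene is often left uncounted. Rps27 shares 98.7% and ranked 10, and Rpl3l shares none. Across 83 members with counts Spearman's rho of level and shared percent was -0.10, over genes of the same libraries. These members include paralogues known from single tissues, such as Rpl3l and Rpl39l, so the value cannot show how many reads sharing removed. The part of uncounted reads in these levels was not tested. Levels of members with near-identical copies are uncertain, while each is compared with itself between libraries below. Length matters too: with all annotated exons merged, Rplp1 and Rps15 kept ranks 1 and 2, and Rplp2 moved from 4 to 25.

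The family took 1.31%, 1.34% and 1.43% of all counts in the bone controls, 1.03% and 1.04% in the lung controls, and 0.702% and 0.816% in the brain controls. The 3 tissues do not overlap among controls, bone being highest and brain lowest. In exposed bone the share ran from 0.333% over a median of 1.61% to 2.37%, and 7 of 13 libraries lay above all bone controls and 6 below all of them. Exposed lung ran from 0.801% over 0.995% to 1.37%, with 3 of 7 libraries above both controls and 4 below. The exposed brain libraries held 1.15%, 0.779% and 1.01%, of which 2 lay above both controls. With Gm26917, the mitochondrially encoded and the hemoglobin genes taken out of the total, the control means were 1.46% for bone, 1.08% for lung and 0.809% for brain. Gm26917, an abundant noncoding RNA, held 6.03% to 7.09% of bone control, 3.60% to 4.09% of lung control and 1.07% to 1.43% of brain control counts.

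**Figure D1:**
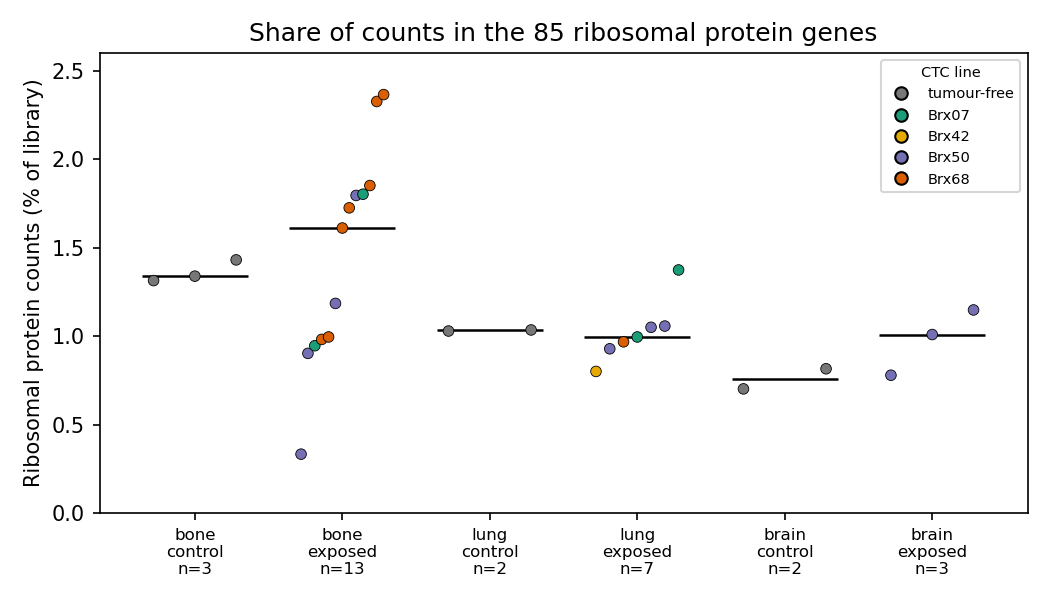
Each point is a library, the y axis is the percent of its counts in the 85 genes, colours are CTC lines and the bar is the group median. Control libraries of the 3 tissues do not overlap, and exposed bone runs from 0.333% to 2.37%, on both sides of the bone controls at 1.31% to 1.43%.

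Between tumour-free tissues, most members were lower in brain than in bone, and 2 were higher. In the brain minus bone comparison 69 of 80 tested members were lower and 2 were higher at an adjusted p under 0.05 (edgeR quasi-likelihood test, Benjamini-Hochberg over all genes), in a comparison that called 75.8% of all genes. The median log2 fold change of the members was -0.94, against 0.04 for all genes tested. Large subunit members had a median of -0.87 and small subunit members one of -1.04. In lung minus bone 41 of 80 members were lower and none was higher, with 44.8% of all genes called and a members' median of -0.32. In lung minus brain 56 of 80 were higher and 2 were lower, with a members' median of 0.56. The share of members called there was near the 72.0% of all genes called. Of all genes tested, 51.1% were fitted higher in brain minus bone, 48.32% in lung minus bone and 48.25% in lung minus brain. The control libraries are shared between these comparisons, so they are not independent of each other.

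Rplp0, the base of the stalk, showed the lowest fitted change of any member in brain. It stood at 576, 509 and 493.4 CPM in the bone controls, at 356 and 344 in the lung controls and at 87.6 and 115 in the brain controls. The tissues did not overlap, and the log2 fold change was -2.52 ± 0.158 (SE) for brain minus bone (edgeR adjusted p = 1.6e-08) and 1.96 ± 0.162 for lung minus brain (2.6e-07). Rpl18, a large subunit protein, stood at 193, 176 and 173 CPM in bone, 142 and 142 in lung and 41.5 and 49.6 in brain. Its log2 fold change was -2.13 ± 0.129 for brain minus bone (edgeR adjusted p = 1.2e-08), the smallest p among the members.

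Rps12, Rpl10a, Rpl7a and Rps18 followed in order of p among the members lower in brain than in bone, with log2 fold changes of -1.82, -2.02, -1.70 and -1.66. Rps18 and Rps12 are small subunit proteins and the other pair belongs to the large subunit. Higher in lung than in brain, beside Rpl18 and Rplp0, were Rpl10 with a log2 fold change of 1.65, Rpl7a with 1.48, Rps4x with 1.25 and Rps9 with 1.39. Rpl10 is a late-joining protein of the large subunit, and in lung minus bone it was not lower (log2 fold change 0.13).

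In order of p, the members lower in lung than in bone were led by Rpl12 and Rps26. Rpl12, which sits at the base of the stalk beside Rplp0, stood at 331, 317 and 316 CPM in bone and at 180 and 187 in lung, a log2 fold change of -0.78 ± 0.115 (edgeR adjusted p = 1.2e-04). Rps26, Rps12, Rpsa, Rpl4 and Rps18 came next, with log2 fold changes of -0.66, -0.75, -0.74, -0.72 and -0.60. Rpsa, a small subunit protein also known as the laminin receptor, stood at 405, 356 and 362 CPM in bone, 222 and 216 in lung and 152 and 178 in brain. Without lung control replicate 1 or replicate 2, 25 and 19 members passed in place of 41, and with the other control libraries left out in turn 31 to 43 passed. The share of all genes called in those fits is not given here.

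Rps21 and Rpl38 ran the other way. Rps21, a small subunit protein, stood at 154, 142 and 148 CPM in the bone controls, 117 and 119 in the lung controls and 232 and 253 in the brain controls. The brain libraries lay above all others, with log2 fold changes of 0.57 ± 0.106 over bone (edgeR adjusted p = 3.4e-04) and, for lung minus brain, -0.87 ± 0.119. Rpl38, a large subunit protein with a known part in the translation of Hox mRNAs, stood at 71.4, 75.9 and 73.7 CPM in bone, 63.2 and 60.1 in lung and 111 and 144 in brain. Its log2 fold change was 0.65 ± 0.127 for brain minus bone. Both calls held under each alternative that kept a library-wide scale and with each control library left out in turn.

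**Figure D2:**
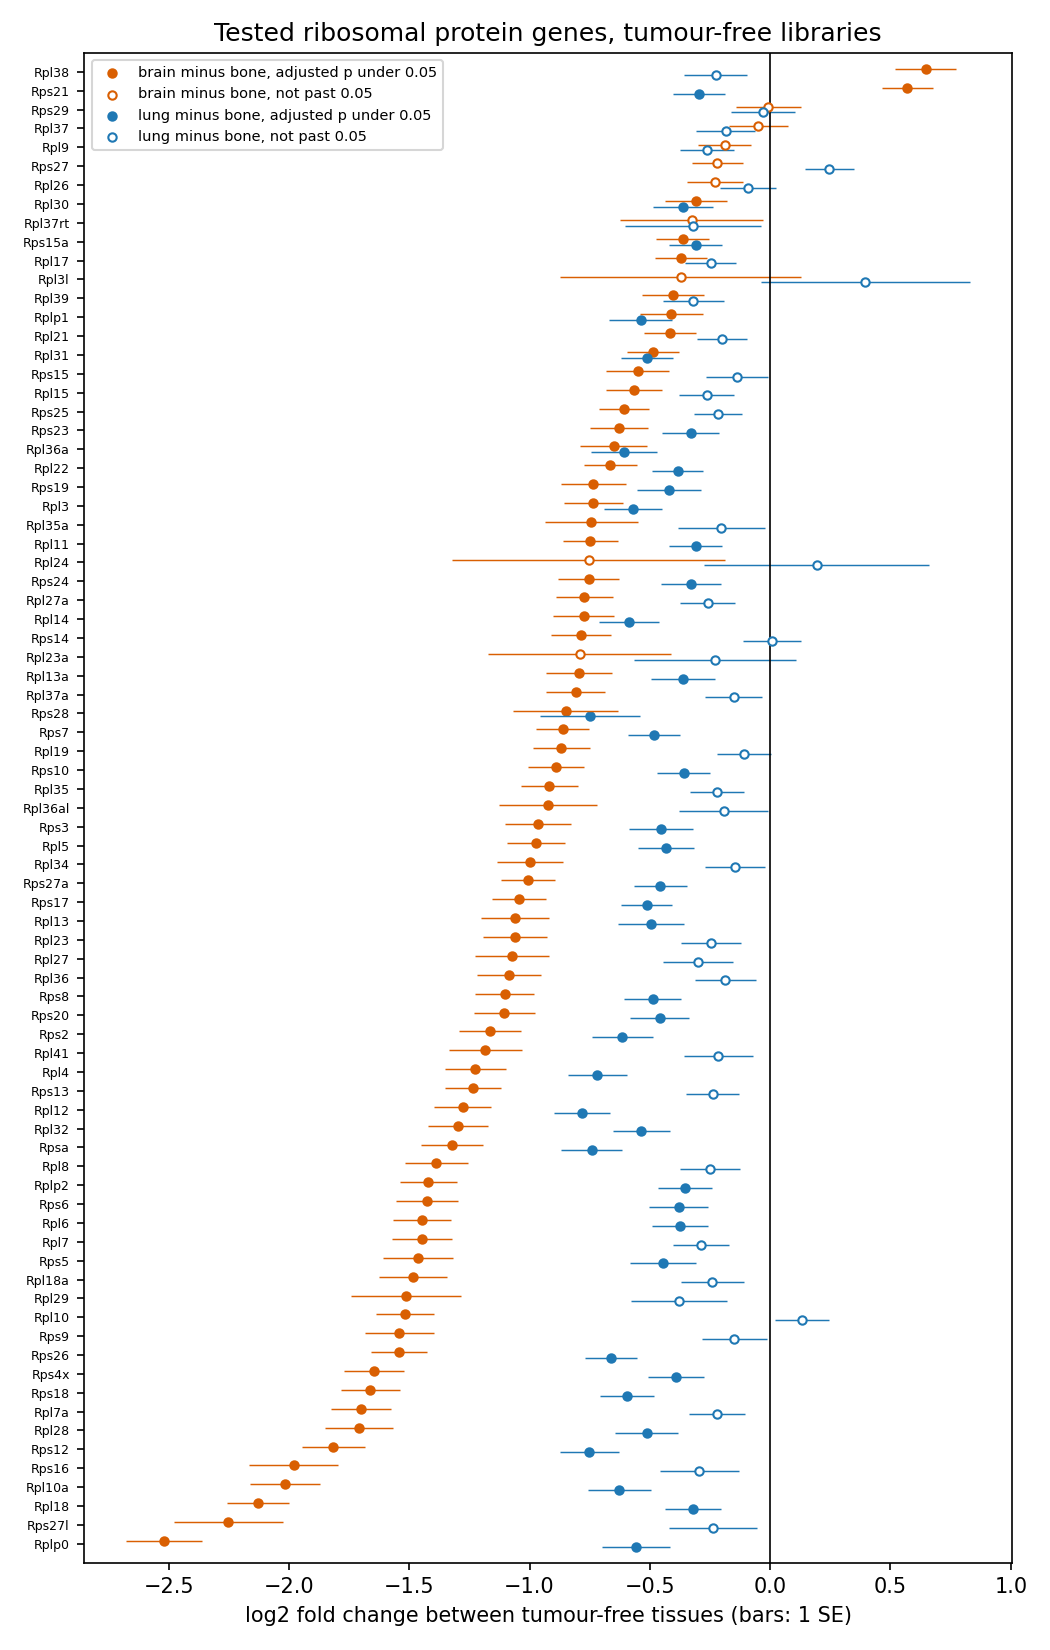
Each row is a tested member, the x axis is the log2 fold change of brain minus bone or lung minus bone control libraries with 1 SE, and filled points passed an adjusted p of 0.05. Only Rpl38 and Rps21 lie to the right with a filled point for brain, and Rplp0 lies lowest at -2.52.

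Members did not keep fixed proportions to each other across tissues. Scaled to the summed counts of the 85 members in place of all genes, brain and bone controls differed in the share of 43 of 80 members, 20 higher and 23 lower in brain, where 80.6% of all genes were called on that scale. Lung and brain controls differed in 38 members, 21 higher and 17 lower in lung (74.8% of all genes called), and lung and bone in 9, 5 higher and 4 lower in lung (51.6%). The members with a larger share of the family in brain than in bone were led by Rpl38 and Rps21, with log2 share differences of 1.62 ± 0.130 and 1.56 ± 0.125. Rps29, Rpl37, Rpl9 and Rps27 followed with 0.97, 0.93, 0.80 and 0.77. The shares of Rplp0, Rpl18, Rpl10a, Rps12 and Rps16 were smaller, with -1.54, -1.15, -1.03, -0.84 and -1.003. In lung against bone, Rps27 (0.62) and Rpl10 (0.50) had the larger shares and Rpl12 (-0.41) and Rps12 (-0.38) the smaller.

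Several of the members with larger shares in brain are short, such as Rps21 and Rpl38, while Rpl37 and Rpl9 are longer, with 835 and 680 bases. Rps12, Rps27l, Rplp2 and Rpl32 are short as well, with 421 to 517 bases, and had smaller shares in brain than in bone. Of the 76 members with at least 100 counts on average, the 20 with the shortest principal transcripts, of at most 517 bases, took 24.6% and 24.8% of family counts in the brain controls against 18.9% to 19.1% in bone and 19.1% and 19.7% in lung controls. This grouping was made after the values were seen. The same group took 28.1%, 20.6% and 23.9% in exposed brain and 17.4% to 20.1% in 12 of the exposed bone libraries. Exposed bone replicate 8, a Brx68 library, stood apart with 28.9%. Across the 76 members, Spearman's rho of transcript length and the brain minus bone log2 fold change was -0.29, with GC content -0.17 and with shared 50-base stretches -0.02, over genes of the same libraries. The part of transcript length or RNA quality in these shares was not tested.

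The starts of 8 genes are printed because they carry the tissue differences or the paralogue differences described here: Rplp0, Rpl18 and Rpl12 were lower in brain or lung, Rps21 and Rpl38 higher in brain, Rps27 and Rps27l are paralogues at different levels, and Rpl3l is the paralogue known from muscle. Each is the 70 bases before and 30 bases from the annotated start, 5′ to 3′ on the strand of the gene, from RefSeq (GRCm38.p6), at chr5:115559397-115559496 (Rplp0, + strand), chr7:45718001-45718100 (Rpl18, +), chr2:32961642-32961741 (Rpl12, +), chr2:180257309-180257408 (Rps21, +), chr11:114668510-114668609 (Rpl38, +), chr3:90213619-90213718 (Rps27, - strand), chr9:66946016-66946115 (Rps27l, +) and chr17:24727756-24727855 (Rpl3l, +). Capitals mark CTCTTTC on the gene's strand, a pyrimidine run, and on either strand CCGGAA, the core of ETS family sites, and GGGCGG, the core of Sp1 sites.
Rplp0: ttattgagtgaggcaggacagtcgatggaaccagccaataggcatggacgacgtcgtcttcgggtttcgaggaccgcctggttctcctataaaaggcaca
Rpl18: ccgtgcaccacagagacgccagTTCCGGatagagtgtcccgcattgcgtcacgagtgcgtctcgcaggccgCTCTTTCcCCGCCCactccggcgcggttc
Rpl12: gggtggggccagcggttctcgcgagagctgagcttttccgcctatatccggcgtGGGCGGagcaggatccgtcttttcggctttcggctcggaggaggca
Rps21: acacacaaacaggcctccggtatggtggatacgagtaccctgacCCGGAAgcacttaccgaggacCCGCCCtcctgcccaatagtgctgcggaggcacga
Rpl38: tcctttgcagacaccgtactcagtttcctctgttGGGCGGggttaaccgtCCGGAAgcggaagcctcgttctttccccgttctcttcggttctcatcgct
Rps27: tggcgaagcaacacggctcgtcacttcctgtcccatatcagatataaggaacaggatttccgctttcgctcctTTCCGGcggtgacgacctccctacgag
Rps27l: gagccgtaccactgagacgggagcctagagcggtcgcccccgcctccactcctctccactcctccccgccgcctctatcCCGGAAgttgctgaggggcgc
Rpl3l: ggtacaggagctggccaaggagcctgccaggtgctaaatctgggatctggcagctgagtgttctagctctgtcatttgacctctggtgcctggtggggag

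A longer window of 300 bases, 250 before and 50 after the start, was listed for 63 of the 85 members and for 27025 genes in all. CTCTTTC on the gene's strand occurred in 13 of the 63 member windows (20.6%) against 4.60% of all windows. CCGGAA on either strand occurred in 34 (54.0%) against 16.7%, and GGGCGG in 37 (58.7%) against 38.2%. AAGATGGC, the core of YY1 sites, occurred in 5 (7.94%) against 3.19%, and CACGTG, the E-box bound by Myc and Usf proteins, in 6 (9.52%) against 8.09%. In the 100-base starts printed above, the pair higher in brain, Rps21 and Rpl38, both hold CCGGAA and GGGCGG, as does Rpl18, which was lower in brain; Rplp0 and Rpl3l hold none of the 3 motifs marked. A match is a description of letters and was not linked to binding.

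Exposure to tumours was then compared with tumour-free tissue. In bone, none of 81 tested members passed an adjusted p of 0.05 in the edgeR quasi-likelihood test, in a comparison that called 0% of all genes; no member had an unadjusted p under 0.05. The members' median log2 fold change was 0.10, that of all genes 0.08, and 53 members were fitted higher and 28 lower. The 3 highest fitted values were those of Rpl39l with 1.53 ± 1.21 (SE), Rpl3l with 1.52 ± 0.998 and Rpl39 with 0.77 ± 0.747, and the 3 lowest those of Rpsa with -0.26 ± 0.445, Rpl28 with -0.23 ± 0.422 and Rpl29 with -0.22 ± 0.322. With each of the 16 libraries left out in turn, no member passed, and the median lay between -0.01 and 0.20.

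The exposed bone libraries spread far more than the controls. Rplp1 ran from 59.1 over a median of 371 to 742 CPM in exposed bone and stood at 355, 302 and 301 in the controls. Replicate 6, a Brx50 library, held the lowest family share, 0.333%, and the lowest values of Rplp0 with 88.2 CPM and Rplp2 with 50.6 CPM. It also held 22440 CPM of 7 airway and mucous gland markers against 40.5 to 2035 in bone controls, 705 CPM of 7 pituitary markers against at most 1.31, and pseudogene counts equal to 1.85% of the family count, where the other 29 libraries had 0.525% to 1.06%. Replicates 7 and 8, both Brx68, held the highest shares, 2.33% and 2.37%, with 680 and 250 CPM of neutrophil markers against 34310 to 44970 in bone controls. They also held 5495 and 8504 CPM of 8 squamous epithelium markers, all detected, against 476 to 1059 in bone controls. The 11 transcripts listed as signs of RNA quality, noncoding RNAs such as Gm26917 and Malat1 among them, summed to 153400 CPM in replicate 6 and 138100 in replicate 8, against 89920 to 97060 in bone controls. The neutrophil sum was 22230 to 58880 CPM in replicates 1, 4, 5, 10 and 11, whose family shares ran from 1.19% to 1.85%, and 139 to 2630 CPM in the others, whose shares ran from 0.333% to 2.37%. The part of cell mixture or RNA quality in these shares was not tested.

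In lung, none of 80 tested members passed (edgeR quasi-likelihood, 0% of all genes called), and none had an unadjusted p under 0.05. The members' median log2 fold change was 0.05 against 0.08 for all genes. Rps27l with 1.05 ± 0.741 (SE), Rps28 with 0.45 ± 0.397 and Rps19 with 0.42 ± 0.352 had the highest fitted values, and Rpl29 with -0.18 ± 0.301 and Rpl6 with -0.14 ± 0.205 were among the lowest. Rplp0 ran from 250 over 320 to 562 CPM in exposed lung, around 356 and 344 in the controls. Replicate 1, a Brx07 library, held the highest family share, 1.37%, and 42660 CPM of 10 fibroblast markers against 1882 and 2232 in lung controls. Without it the members' median was -0.03.

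In brain, none of 78 tested members passed either (edgeR quasi-likelihood, 0.00598% of all genes called, which is 1 gene of 16734). An unadjusted p under 0.05 occurred for 9 members. The share of all genes under that line is not given here, so the count is not a result about the family. The fitted values leaned upward: 66 of 78 were above 0, with a median of 0.34 against 0.03 for all genes, and leaving out each library in turn gave medians from 0.21 to 0.52. In CPM, 28 of 78 members (35.9%) had all 3 exposed libraries above both controls, which 19.9% of all genes tested did. Members move together within a library, so these members count as few observations.

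Rpl18 had the smallest p of the brain members. It stood at 81.1, 93.2 and 97.9 CPM in exposed brain against 41.5 and 49.6 in the controls, so the groups did not overlap. Its log2 fold change was 0.94 ± 0.225 (edgeR adjusted p = 0.248). It passed with DESeq2 (0.92, adjusted p = 0.022) and with limma-voom and quality weights (1.03, adjusted p = 0.019), each calling this 1 member. The share of all genes called by DESeq2 or limma-voom is not given here, so their calls are not results about the family. Rps16, a small subunit protein, stood at 53.6, 59.8 and 29.6 CPM against 17.4 and 24.3, a log2 fold change of 1.14 ± 0.369 (edgeR adjusted p = 0.310). Rplp0 stood at 124, 232 and 195 CPM against 87.6 and 115, with 0.80 ± 0.311 (edgeR adjusted p = 0.347). These members were lower in brain than in bone controls, as most members were. Both comparisons use the same brain control libraries, so they are not independent of each other. The other high fitted values were those of Rps27l with 1.13 and Rpl36 with 0.97, and the lowest those of Rpl37rt with -1.22 ± 1.18, Rpl29 with -0.50 ± 0.837 and Rpl26 with -0.23 ± 0.306.

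Rps21 and Rpl38, the pair that was higher in brain among controls, differed between the exposed brain libraries. Rps21 stood at 382, 106 and 255 CPM in exposed replicates 1, 2 and 3 against 232 and 253 in the controls. Rpl38 stood at 212, 57.6 and 157 CPM against 111 and 144. Replicate 2 lay below every control library of the 3 tissues for both. Against the brain controls the family shares of Rps21, Rpl38 and Rps27 were its lowest and those of Rps16, Rps27l and Rplp0 its highest.

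Marker sums differed between exposed and control brain as well. The 7 oligodendrocyte markers summed to 41320, 32090 and 23990 CPM in exposed brain against 12030 and 21460, the 10 neuron markers to 2592, 724 and 2135 against 3880 and 3071, and the 7 microglia markers to 1835, 2393 and 651 against 492 and 645, with every gene of the 3 lists detected in both groups. The 7 pituitary markers summed to 2002, 1487 and 664 CPM against 10.2 and 10.5. Of those 7, Cga and Lhb were at 0 in the controls and Lhb in the exposed libraries. Replicate 2 also held 4452 CPM of neutrophil markers against 38.1 and 55.3 in the controls, where Ctsg of the 15 was at 0. The 11 RNA quality transcripts, all detected, summed to 79530, 70570 and 57530 CPM in exposed brain against 45370 and 47410 in the controls, and Gm26917 alone took 2.32%, 4.18% and 2.485% of counts against 1.07% and 1.43%. All 3 exposed libraries lay above both controls on both measures. The part of these cell mixtures and of RNA quality in the brain values was not tested.

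**Figure D3:**
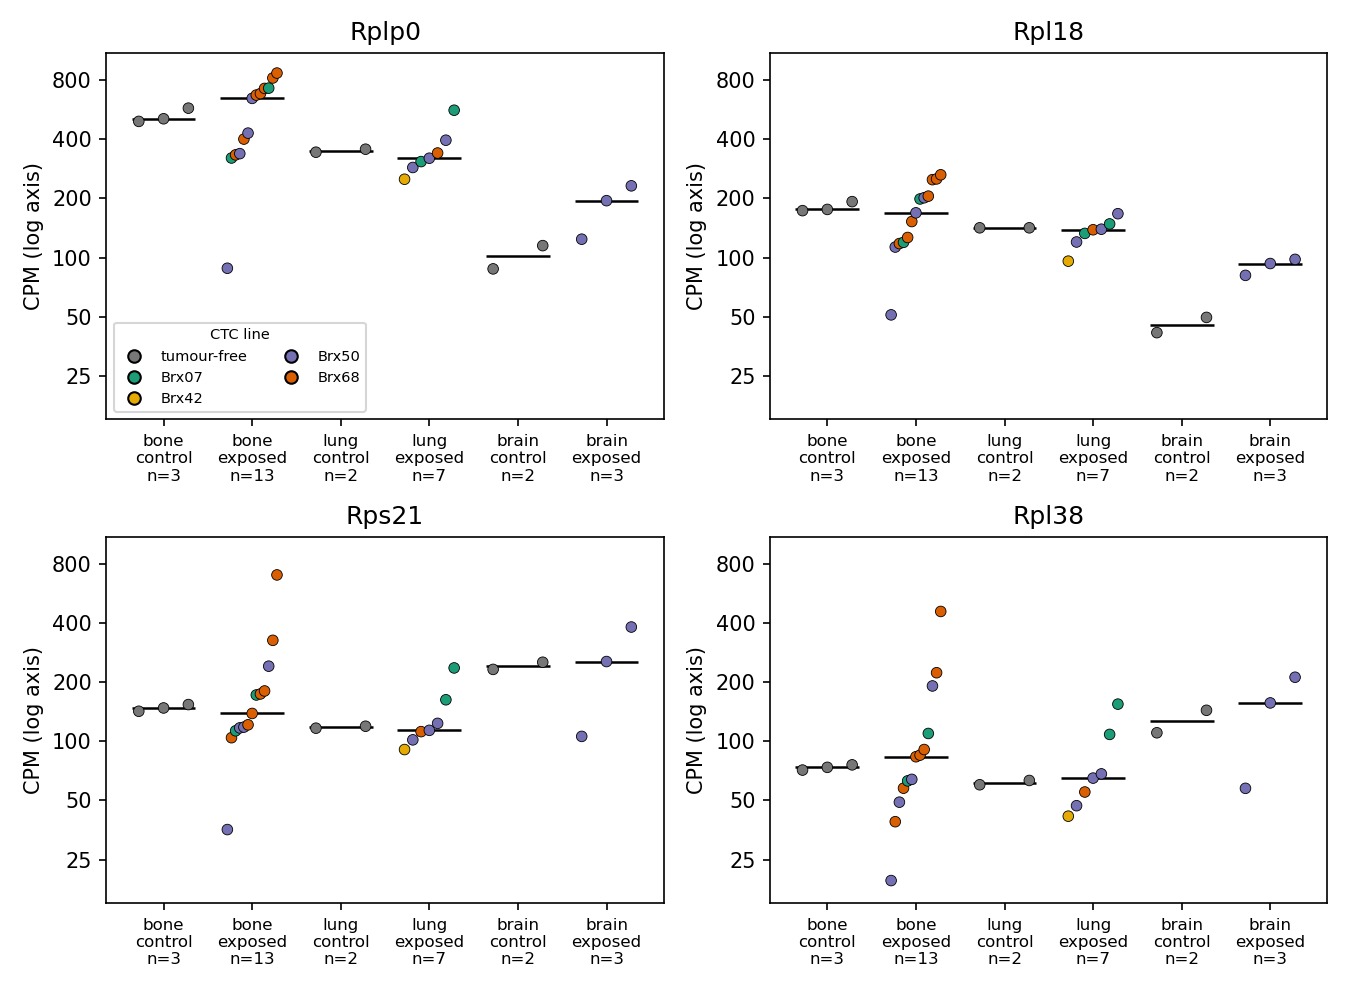
Each panel shows the CPM of 1 member on a log axis, with a point per library coloured by CTC line and a bar at the group median. Rplp0 and Rpl18 are lowest in brain controls, Rps21 and Rpl38 are higher in brain than in the other controls, and exposed bone spreads widely for all 4.

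The effect of exposure did not differ detectably between tissues. Exposed brain held Brx50 alone, exposed bone mostly Brx68 and exposed lung a mixture of lines. Tissue and CTC line therefore cannot be told apart in this comparison. For lung against bone, brain against bone and lung against brain, 0 of 82 tested members passed in the interaction terms of 1 edgeR quasi-likelihood fit of all 30 libraries, in which 0%, 0% and 0% of all genes were called. Unadjusted p under 0.05 occurred for 0, 2 and 1 members, and the share of all genes under that line is not given here. The median interaction log2 values were -0.04, 0.18 and -0.23. Rpl18 passed in brain against bone with limma-voom and quality weights (log2 1.23, adjusted p = 0.022), and in edgeR its value was 1.00 ± 0.531. The share of all genes called by limma-voom in this comparison is not given here.

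Between CTC lines in exposed bone, nearly all members were fitted higher beside Brx68 than beside Brx50, and none passed. The family shares were 0.903%, 1.80%, 1.19% and 0.333% in the 4 Brx50 libraries and ran from 0.982% over 1.73% to 2.37% in the 7 Brx68 libraries, so the lines overlapped. In the edgeR quasi-likelihood test 81 of 82 members had a log2 fold change above 0, with a median of 0.73 against -0.01 for all genes. In that test 0 members and 0% of all genes passed. An unadjusted p under 0.05 occurred for 1 member, and the share of all genes under that line is not given here. Rpl39l (2.42 ± 1.14), Rps27 (1.23 ± 0.721) and Rpl39 (1.18 ± 0.763) had the highest fitted values, and Rpl35a (-0.36 ± 0.376) was the 1 member below 0. The median was 0.37 without Brx50 replicate 6 and 1.08 without Brx50 replicate 4. The squamous epithelium markers summed to 5495, 8504 and 9162 CPM in Brx68 replicates 7, 8 and 13, to at most 412 in the other Brx68 bone libraries and to 71.5 to 401 in the Brx50 bone libraries, and their part was not tested. Members move together within a library, so their common sign counts as few observations: the median Spearman correlation between the CPM of 2 members over the 30 libraries was 0.79.

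In lung, Brx50 and Brx07 were compared over 3 and 2 libraries. None of 80 members passed and 0% of all genes did (edgeR quasi-likelihood). An unadjusted p under 0.05 occurred for 2 members, and the share of all genes under that line is not given here. The median log2 fold change was -0.15, and it was 0.15 without Brx07 replicate 1 and -0.41 without Brx07 replicate 2. Rpl38 stood at 47.0, 65.0 and 68.2 CPM beside Brx50 and at 155 and 108 beside Brx07, a log2 fold change of -1.10 ± 0.362 (edgeR adjusted p = 0.691).

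Brx50 tumours were sampled in all 3 tissues, which allowed exposed tissues to be compared within 1 line. None of 80 members passed in lung minus bone, where 4.05% of all genes did. In brain minus bone 1 member passed against 14.5% of all genes, and in lung minus brain 1 against 24.6%; in both it was Rpl3l. The medians of the members were 0.06, -0.38 and 0.41. Without bone replicate 6, the library with the 0.333% share, 7 members passed in brain minus bone against 11.8% of all genes, all 7 lower in brain, among them Rplp0 with -1.60 and Rps4x with -1.28. In lung minus brain 6 passed against 25.4% of all genes, among them Rplp0 with 1.22 and Rpl18 with 1.00, while Rpl3l did not pass there.

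**Figure D4:**
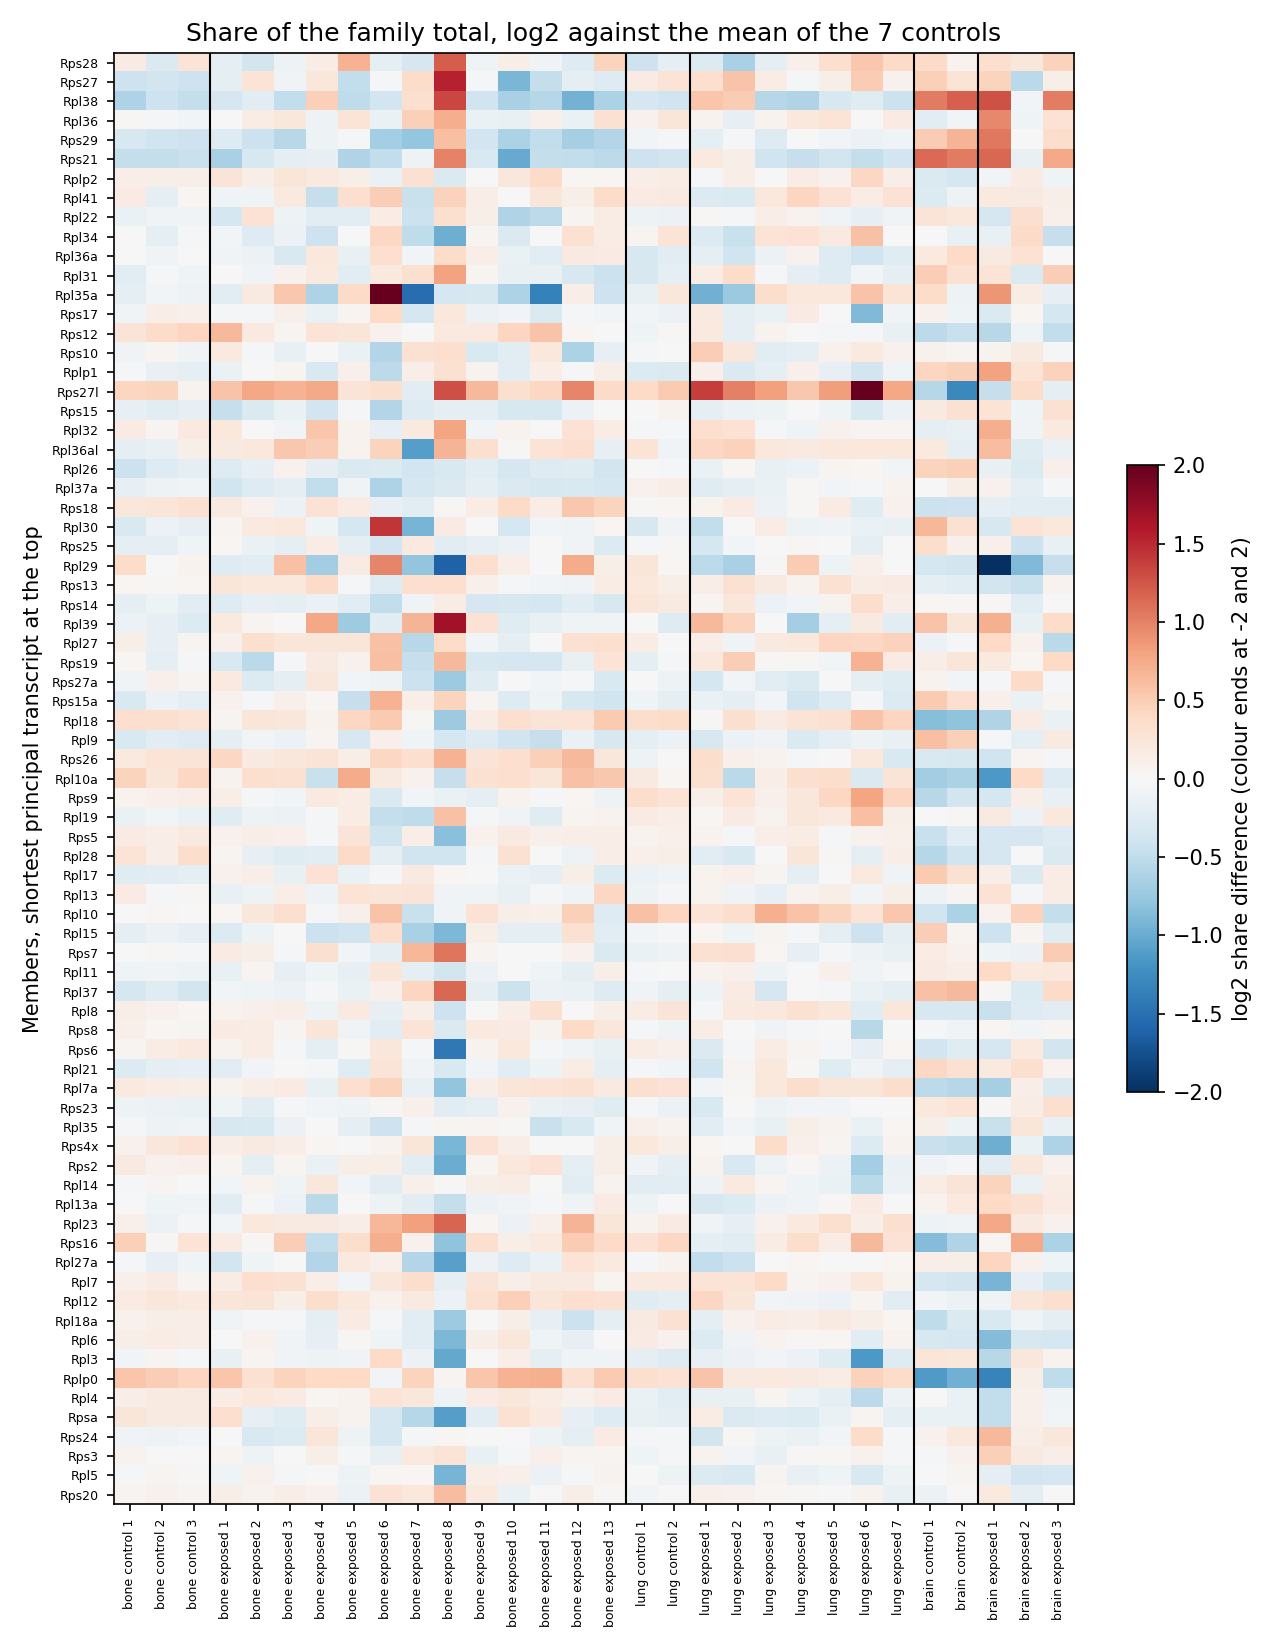
Colour gives the log2 share of each member with at least 100 counts on average in the family total of a library, relative to the mean of the 7 controls, with the shortest transcripts at the top and libraries grouped by tissue and exposure. Brain controls are red for Rps21 and Rpl38 and blue for Rplp0 and Rpl18, and exposed bone replicate 8 is red for short members such as Rps27 and Rpl38.

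Single libraries carried shares of their own. Measured against the controls of its own tissue, exposed bone replicate 8 had 17 of 76 members changed in share by more than 1 on the log2 scale, the largest count of any library, led by Rps27 with 1.94, and with Rpl29 lowest at -1.75. The next were exposed brain replicate 2 with 6 members and exposed bone replicates 6 and 7 and exposed brain replicate 1 with 2 each. In exposed bone replicate 6, Rpl35a stood at 22.8 CPM against 13.0 to 13.1 in the bone controls although the family was low, a log2 share difference of 2.84. In exposed brain replicate 1, Rpl29 stood at 1.17 CPM against 4.94 and 5.73 in the brain controls. Rpl35a shares a 50-base stretch with 20 other annotated genes and Rpl29 with 84. Such counts vary widely over the members, with 123 for Rpl7a and 9 for Rps27, which led in exposed bone replicate 8. The part of shared stretches in these values was not tested.

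The paralogues stood apart from their standard partners. Rpl3, the large subunit protein near the peptidyl transferase centre, stood at 306, 303 and 289 CPM in bone controls, while Rpl3l stood at 1.54, 2.16 and 1.39. In exposed bone Rpl3l ran from 0 over 4.73 to 17.7 CPM. The highest value was in replicate 12, a Brx68 library with 33020 CPM of 12 skeletal muscle markers, all detected, against 455 to 669 in bone controls. Replicate 7, with 1901 CPM of the muscle markers, had no Rpl3l count. Among the Brx50 libraries Rpl3l stood at 5.88, 4.73, 4.65 and 2.63 CPM in bone, 1.34, 3.40 and 3.60 in lung, and 0.23, 0 and 0.79 in brain, so brain lay below the others. Its log2 fold change was -3.92 ± 1.07 for brain minus bone (edgeR adjusted p = 0.035) and 3.36 ± 1.07 for lung minus brain (0.045), at these low counts. Leaving out 6 of the 10 libraries singly ended the first call, with adjusted p up to 0.101, and leaving out 9 of the 10 singly ended the second, with adjusted p up to 0.106. The muscle markers summed to 516 to 1519 CPM in the Brx50 bone libraries, 23.6 to 55.9 in those of lung and 77.45 to 104 in those of brain. Lung thus lay below brain for these markers and above it for Rpl3l. The part of muscle in the Rpl3l values was not tested.

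Rpl39l, the paralogue known from testis, had at most 0.75 CPM in the control libraries and 0 in both brain and both lung controls. It reached 4.82 CPM in exposed bone replicate 7 and 2.69, 2.02 and 1.496 in replicates 12, 11 and 8, all beside Brx68. The testis germ cell markers summed to at most 3.50 CPM in any library. Rpl39, its standard partner, ran from 19.4 over 99.7 to 519 CPM in exposed bone, with the highest value in replicate 8, and stood at 90.2, 80.7 and 76.4 in bone controls.

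Rps27l was low in brain and high in 2 single libraries. It stood at 25.02, 23.1 and 18.1 CPM in bone controls, 17.7 and 19.1 in lung controls and 6.06 and 4.26 in brain controls, and at 10.7, 13.0 and 11.4 in exposed brain, above both brain controls. Its log2 fold change in brain minus bone controls was -2.25 ± 0.227 (edgeR adjusted p = 1.5e-06). Its partner Rps27 stood at 123, 115 and 115 CPM in bone, 132 and 141 in lung and 111 and 113 in brain controls. In exposed lung Rps27l ran from 17.5 over 24.6 to 92.8 CPM, the highest in replicate 6, a Brx50 library. That library held 272 CPM of the 10 endothelial markers, where the other lung libraries held 2136 to 10830; Cldn5 was at 0 in all lung libraries. Exposed bone replicate 8 followed with 75.3 CPM of Rps27l and also held the highest Rps27, 785 CPM.

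**Figure D5:**
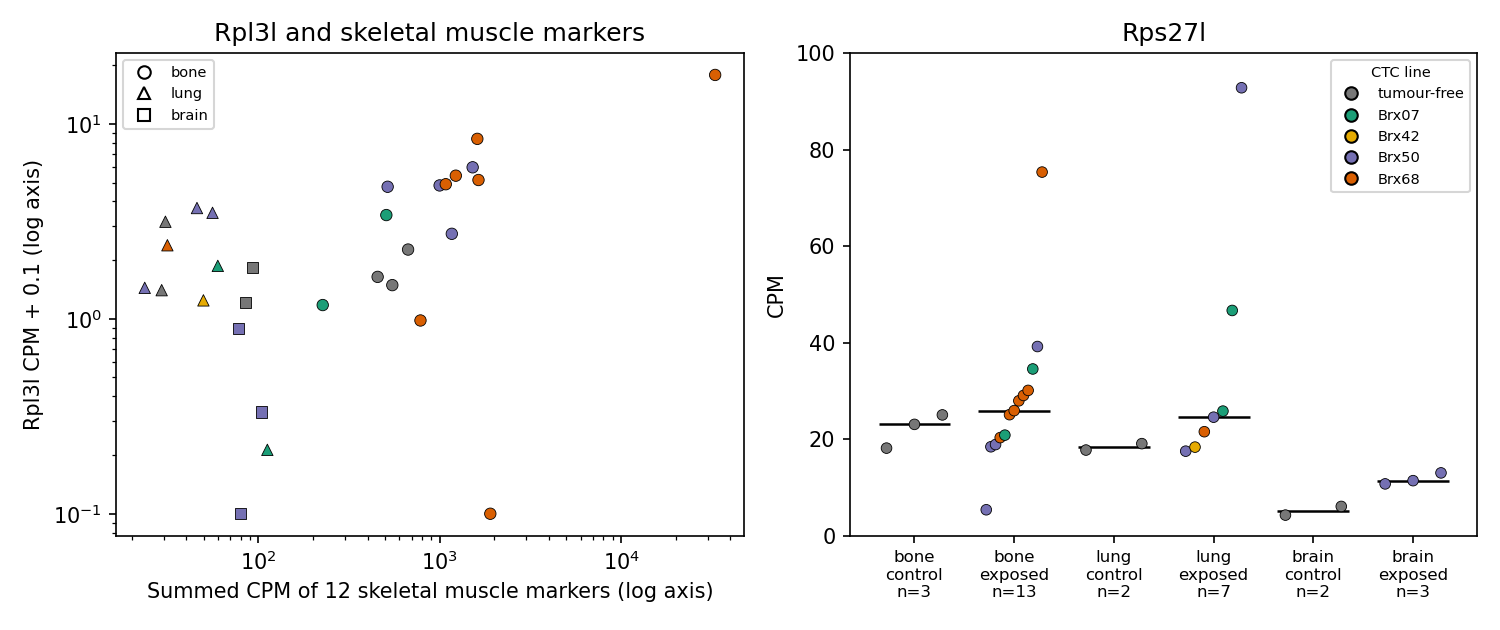
The left panel plots Rpl3l CPM plus 0.1 against the summed CPM of 12 skeletal muscle markers, both on log axes, with a symbol per tissue and a colour per CTC line (as in the right panel). The right panel gives Rps27l CPM by group with a bar at the median. Replicate 12 of exposed bone is highest on both axes at left, and 1 exposed lung library at 92.8 CPM and 1 exposed bone library at 75.3 CPM stand above the rest at right.

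Rpl36a and Rpl36al, which encode nearly the same protein, kept their order. Rpl36a stood at 56.2, 49.4 and 53.5 CPM in bone controls and Rpl36al at 12.8, 12.1 and 14.9. In lung controls Rpl36a stood at 32.9 and 35.3 CPM and Rpl36al at 12.7 and 9.95, and in brain controls at 31.9 and 42.5 against 8.13 and 7.33. Neither passed in an exposed minus control comparison. Rpl36a was lower in lung than in bone (log2 fold change -0.61), whereas Rpl36al did not pass there (-0.19).

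Proteins of the ribosome that the name rule missed were, in part, also lower in brain or lung. Rps3a1, a small subunit protein, Fau, which encodes a ubiquitin-like fusion with the small subunit protein eS30, and Rack1, a scaffold bound to the small subunit, were lower in brain than in bone controls with log2 fold changes of -0.995, -1.40 and -2.24. Rack1 stood at 251 to 286 CPM in bone, 201 to 214 in lung and 55.5 to 66.9 in brain controls. Of 6 such genes, 4 (66.7%) were lower in brain than in bone, in a comparison that called 75.8% of all genes. The fourth was the paralogue Rpl7l1 with -1.09. Rps3a1, Rpl22l1 and Rpl7l1 (50.0% of the 6) were lower in lung than in bone, with -0.36, -0.44 and -0.33, where 44.8% of all genes were called. With 6 genes, neither share sets them apart from all genes. None of the 6 passed in an exposed minus control comparison, Rack1 coming nearest in brain with 0.83 (edgeR adjusted p = 0.259).

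The rest of the translation pathway was read from lists of genes by role, in a brain minus bone comparison that called 75.8% of all genes. Among elongation factors, 7 of 10 were lower in brain than in bone controls and 2 were higher, with a median log2 fold change of -0.70. Those higher were Eef1a2 (6.51), the neuronal and muscle form of the factor that brings tRNA to the ribosome, and Eif5a2 (3.47); Eif5a (-1.78) and Tpt1 (-1.72) were lower. Of 37 initiation genes 25 were lower and 5 higher, led by Eif4a1 (-2.14), the helicase of the cap-binding complex, and Pabpc1 (-2.28), which binds poly(A) tails. Of 45 ribosome assembly genes 34 were lower and 2 higher, with the smallest p for Ddx21 (-1.71) and the lowest value for Ltv1 (-1.78). Of 15 RNA polymerase I genes 7 were lower and none higher, with the smallest p for Polr1c (-1.15) and the lowest value for Znrd1 (-1.85). The regulators of ribosomal protein synthesis were 9 lower and 4 higher of 19. Myc, a transcription factor that drives ribosomal genes, was lower (-4.67), and Tsc1, which restrains mTOR, was higher (1.40). Mtor was higher as well (0.70), and the translation repressor Eif4ebp1 was lower (-3.78), so the regulators did not all point the same way. Among 21 tested chaperone and surveillance genes 9 were lower and 5 higher, with Nacad at 2.54 and Cdkn1a at -4.95. The 8 tested snoRNA host genes were 3 lower and 2 higher, and Gas5, a noncoding RNA with snoRNAs in its introns, was higher in brain (0.60).

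In lung against bone controls, where 44.8% of all genes were called, ribosome assembly had 19 of 45 genes lower and 2 higher, with Sbds higher (1.00) and Dkc1 lower (-1.21). The elongation list had 4 of 10 lower, among them Eef1a2 (-2.63) and Eif5a (-0.75), the initiation list 5 of 37 lower and 3 higher, among them Eif3l (-0.48) and Eif5 (0.49), and RNA polymerase I had 3 of 15 lower, among them Polr1a (-0.67). Myc was lower in lung than in bone (-2.11), the regulators standing at 8 lower and 1 higher.

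In the exposed minus control comparisons, no gene of any of these lists passed in bone, lung or brain (edgeR quasi-likelihood). The 2 most abundant genes of each list are given with their fitted values, none of which passed. Eef2, which moves the ribosome along the mRNA, had log2 fold changes of -0.02 in bone, -0.09 in lung and -0.08 in brain, and Eef1a1 had -0.05, -0.07 and 0.35. Ncl, the abundant nucleolar protein nucleolin, had 0.22 in bone, -0.00 in lung and 0.07 in brain, and Npm1, another abundant nucleolar protein, had 0.21, 0.15 and 0.12. The initiation genes Eif4g2 and Pabpc1 had -0.13, -0.06 and -0.24, and -0.18, 0.02 and 0.61. Ubtf, a factor of RNA polymerase I, had 0.05, 0.22 and 0.30, and Polr1a, the largest subunit of that polymerase, had -0.125, 0.08 and 0.11. Larp1, which binds the pyrimidine starts of ribosomal protein mRNAs, had 0.09, 0.24 and 0.15. Rps6ka1, a kinase that phosphorylates a small subunit protein, had -1.13 in bone, -0.26 in lung and 0.70 in brain. The chaperone Hspa8 had 0.71, -0.41 and 0.20, and Naca, which binds new chains at the ribosome, had 0.06, -0.01 and 0.04. The snoRNA hosts Gas5 and Snhg17 had 0.56, 0.11 and 0.05, and 0.52, 0.195 and -0.24.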

How the data were processed

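RNA-seq was measured in 30 libraries of sorted mouse cells. The authors deposited whole-number read counts per Ensembl gene in 1 table. The tools named in the submitters' processing notes are HTSeq and STAR (version 2.5.2b), and the builds are mm10 (GRCm38.p5) and hg19 (GRCh37). No source used here says how human reads were set apart. IDs were matched to symbols in the GENCODE M21 annotation for 42462 of 43346 rows; the 884 others held 0.132% of counts. CPM use all counts of a library in the table as its total.

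The counts were tested with edgeR 4.0.16 (R 4.3.3): filterByExpr, TMM scaling, robust quasi-likelihood F-tests, Benjamini-Hochberg over all genes, threshold 0.05. SE is the log2 fold change divided by the square root of F. Exposed and control were fitted per tissue, controls, Brx50 libraries and bone or lung lines in fits of their own, and interactions in a fit of all 30. Alternatives used DESeq2 1.42.0, limma 3.58.1 (voom with quality weights), other scalings, no filter, left-out libraries and a block on replicate numbers or title codes. The fits were tested on simulated data.

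The members and lists were chosen with earlier results of these data known. Named genes were the paralogues, Rplp0, Rplp1, Rplp2 and Rpsa; up to 6 members per direction past the threshold in a comparison; the 3 highest and 3 lowest fitted members per exposed comparison; the 5 most and least abundant; and, per pathway list, up to 4 past the threshold, else the most abundant. Levels between genes use the shortest best-ranked APPRIS transcript. Shared stretches are 50-base runs found in other annotated transcripts on either strand. A few single-gene results are not reported here, in text or figures, while counts over the members include every gene.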

Additional observations from a re-analysis of the deposited data

Results flagged for a closer look

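Single libraries lay far from the others of their group, by Dixon's gap test, in 9 of 57 tests over the family share and 18 members in exposed lung, bone Brx68 and bone Brx50; chance gives about 1 in 20, and members of a library are not independent. In bone Brx68, exposed replicate 8 was highest for Rpl39 (519 CPM), Rps27 (785 CPM), Rps27l (75.3 CPM), Rpl36al (38.6 CPM), Rps21 (703 CPM) and Rps29 (528 CPM). In exposed lung, replicate 1 was highest for Rplp1 (376 CPM) and Rpl12 (374 CPM), and replicate 6 for Rps27l (92.8 CPM).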

How the results depend on the processing

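Exposed titles carry codes, not the replicate numbers of the controls. A block on the number of the control libraries, or on the title code of the Brx50 libraries, was added after seeing the data. Correlations of deviations from group means were -0.08 to 0.02 over 6 same-numbered control pairs and -0.19 to 0.34 over 5 same-coded Brx50 pairs. The control numbers are those of the titles, while the count columns number the 2 brain controls 2 and 3. Lung and brain have 2 controls each, whose deviations mirror each other, so the check on controls can show little. With the replicate block 27 members in place of 41 passed in control lung minus bone, 70 in brain minus bone and 56 in lung minus brain, and 0 in all 3 Brx50 comparisons, where the median was -0.427 in place of 0.06 in lung minus bone. Of 848 alternative values for 58 results on single members, 819 kept direction and side of the threshold, 18 lost the call (Rpl3l in the Brx50 comparisons), 9 gained it (Rpl18, Rplp0 and Rps4x, in exposed brain, the brain minus bone interaction and the Brx50 comparisons) and 2 changed sign, neither of them past the threshold: Rpl28 in bone with Brx68 alone (0.011) and Rpl29 in lung with Brx50 alone (0.071). The cause was not tested. With left-out libraries, members called ranged from 19 to 43 in control lung minus bone, 0 to 7 in Brx50 brain minus bone and 0 to 6 in Brx50 lung minus brain. Medians ranged from -1.05 to -0.88 in control brain minus bone, 0.49 to 0.70 in control lung minus brain and -0.41 to 0.15 in lung Brx50 minus Brx07. With upper quartile scaling the control brain minus bone median was -0.86. DESeq2 called 1 member in exposed brain, 3 in Brx50 brain minus bone and 4 in Brx50 lung minus brain. With limma-voom 1 was called in exposed brain, 1 in the brain minus bone interaction and 13 in Brx50 lung minus brain, and no filter called 0 there. The main fits called 14.5% of all genes in Brx50 brain minus bone and 24.6% in Brx50 lung minus brain. Apart from the fits without bone replicate 6, the share of all genes called with these tools, blocks and left-out libraries is not given here. These counts are therefore not results about the family. Scaled to the members' sum, the control comparisons called 9, 43 and 38 members and both Brx50 comparisons 0, since this scale takes out the family's common change; it moved the median of all genes to 0.34 in control lung minus bone, 1.03 in brain minus bone and -0.68 in lung minus brain. Without Gm26917, mitochondrial and hemoglobin genes the share was 1.46% in bone and 1.08% in lung controls. The interaction fit without bone exposed replicate 6 was chosen after seeing the data and called 0 members. Members with few counts, such as Rpl3l and Rpl39l, have wide errors.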
